A study of Mus musculus with 2 samples.

Results

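Cycling macrophages are macrophages that carry RNA of the proliferation genes Mki67 and Top2a. They were picked from 2 single-cell libraries of injured mouse muscle by their own RNA. A barcode had to hold at least 5000 UMIs (unique molecular identifiers, each 1 captured RNA molecule), with at most 10% of them mitochondrial. The macrophage genes Csf1r, Adgre1 and Fcgr1 had to give at least 3 UMIs together, and Pdgfra, Cdh5 and Cdh15, markers of fibro-adipogenic, endothelial and myogenic cells, at most 1. Macrophages with at least 5 UMIs of Mki67 and Top2a together were taken as cycling, 83 cells in the wild-type (WT) and 105 in the knockout (KO) library. They were 188 of 7553 macrophages and of 13508 barcodes that passed the depth and mitochondrial limits. Macrophages with 0 UMIs of both genes, 3061 in WT and 3128 in KO, are called non-cycling below, and the 334 WT and 500 KO macrophages with 1 UMI were in neither set, nor were those with 2 to 4.

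Macrophages enter injured muscle as monocytes, clear dying fibres, and later change towards a state that accompanies repair. Some of them divide in the tissue, and a dividing cell runs through a fixed order of gene programmes: E2F factors open the genes of DNA replication in S phase, histone genes are expressed while DNA is copied, and the genes of the spindle and of chromosome segregation follow in G2 and M phase. Mki67 encodes Ki-67, which coats mitotic chromosomes, and Top2a encodes the topoisomerase that untangles copied DNA.

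Cells came from injured tibialis anterior muscle of mice 8 to 12 weeks old, either WT or carrying a conditional knockout of Setdb1, the methyltransferase that places repressive marks on lysine 9 of histone H3. The muscle was digested enzymatically and stained cells (Hoechst, propidium iodide) were sorted and put through the 10x Genomics 3' v2 chemistry. The series title names muscle stem cells as the subject. The Cre driver, and with it the cells in which Setdb1 was deleted, the kind and day of the injury, and how many animals were pooled for a library are unknown from the labels used here.

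Each genotype had 1 library, with 121703522 UMIs in WT and 138667420 in KO, so nothing here has a replicate check, and differences between genotypes, animals and library preparations cannot be told apart. Levels are given as CPM, the UMIs of a gene summed over a set of cells and scaled to a common total of UMIs. Log2 differences use CPM + 5, which understates them for low genes, and a gene counts as higher or lower past 2-fold on that scale if it had at least 50 UMIs over both sums. Intervals in brackets are at 95% and cover counting error only. The libraries shared 9 barcodes, none of them a cycling macrophage. In Setdb1 itself, cycling macrophages had 16.1 CPM [10.8 to 23.1] in WT and 21.05 CPM [15.4 to 28.2] in KO, from 29 and 45 UMIs. Counts at the 3' end of a transcript may lie outside the deleted stretch, so they do not check the labels.

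Macrophage genes that the choice did not use were high in these cells. Lyz2, lysozyme of macrophages, stood at 8732 CPM in WT and 8199.6 in KO, against 153 and 166 in cycling barcodes of the same libraries chosen on Pdgfra, and C1qb, a chain of complement C1q, at 5005 and 4072 CPM, against 49.7 and 61.5. The 3 macrophage genes that chose the cells gave medians of 14 and 15 UMIs together, a description only. Of 9 neutrophil markers 4 had UMIs in each library, summed to 36.0 CPM in WT and 29.9 in KO, against 59.97 and 64.6 in non-cycling macrophages; the defining Ly6g, Cxcr2 and Camp were at 0, and 9 WT and 8 KO cells had at least 3 UMIs of the list. Of 9 T and NK cell markers 5 had UMIs in each library, at 103 CPM in WT and 4.21 in KO, against 5.47 and 3.11 in non-cycling macrophages, with Cd3e and Cd8a at 0. A single WT cell held 176 UMIs of that list. B and plasma cell markers were at 8.32 and 14.5 CPM, below the 15.7 and 23.03 of non-cycling macrophages, with Ms4a1 at 0 and at least 3 UMIs in 1 WT and 3 KO cells. Dendritic cell markers were at 72.6 and 45.8 CPM, against 36.7 and 26.2, and reached 3 UMIs in 9 WT and 8 KO cells, with Itgae at 0. Cycling macrophages were deep, with medians of 18362 UMIs in WT (5193 to 50966) and 19120 in KO (5089 to 58746), against 11271 and 11348.5 in non-cycling ones.

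Mki67 gave a median of 5 UMIs per cycling cell in WT and 7 in KO, and Top2a 9 and 5. These 2 genes chose the cells, so their levels are a description. At the edge of the choice, the 8 WT and 9 KO cells with a sum of exactly 5 had S phase lists at 832 and 2039 CPM and G2 and M phase lists at 4757 and 1772 CPM. Just outside it, the 15 WT and 45 KO cells with a sum of 4 had 2238 and 1546 CPM of the S phase list and 2139 and 1169 CPM of the G2 and M phase list. All of these lay above non-cycling macrophages, at 399.6 and 418 CPM of the S phase list and 260.3 and 273 CPM of the G2 and M phase list.

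Among the cells chosen, 2 kinds went against the label. When every cell was thinned to 5000 UMIs, 7 WT cells (8.43% [3.46 to 16.6]) and 20 KO cells (19.0% [12.0 to 27.9]) had no more UMIs of the S and G2/M lists than the 99th percentile of non-cycling macrophages, 14 UMIs in WT and 13 in KO. Neither list holds Mki67 or Top2a. Of the 20 KO cells, 15 had no Top2a UMI and were chosen on Mki67 alone, and Mki67 had a median of 6 UMIs over the 20. The linker histone gene H1f5, in neither list, was at 0 in these 20 cells, against 593 CPM over all KO cycling cells. The other kind had over 1% of its UMIs from markers of other cell types, mostly fibro-adipogenic ones: 3 WT cells (3.61%), 1 of which is also among the 7, and 14 KO cells (13.3%), against 0.817% and 2.46% of non-cycling macrophages. The 74 WT and 71 KO cells outside both kinds are called the remaining cells, and results that differ without the others are given both ways. Their choice used the S and G2/M lists, so a higher level of these lists in them is built in.

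The scatter of S against G2 and M phase UMIs shows how the cycling cells spread. Per 5000 UMIs, the sum of both lists had medians of 51 in WT and 41 in KO cycling macrophages and 3 in non-cycling macrophages of either library. The remaining cells, chosen in part by this sum, had medians of 52 and 53. Cells with the most G2 and M phase UMIs had few S phase UMIs, and most cells high in S phase UMIs lay below 40 of the other list.

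**Figure D1:**
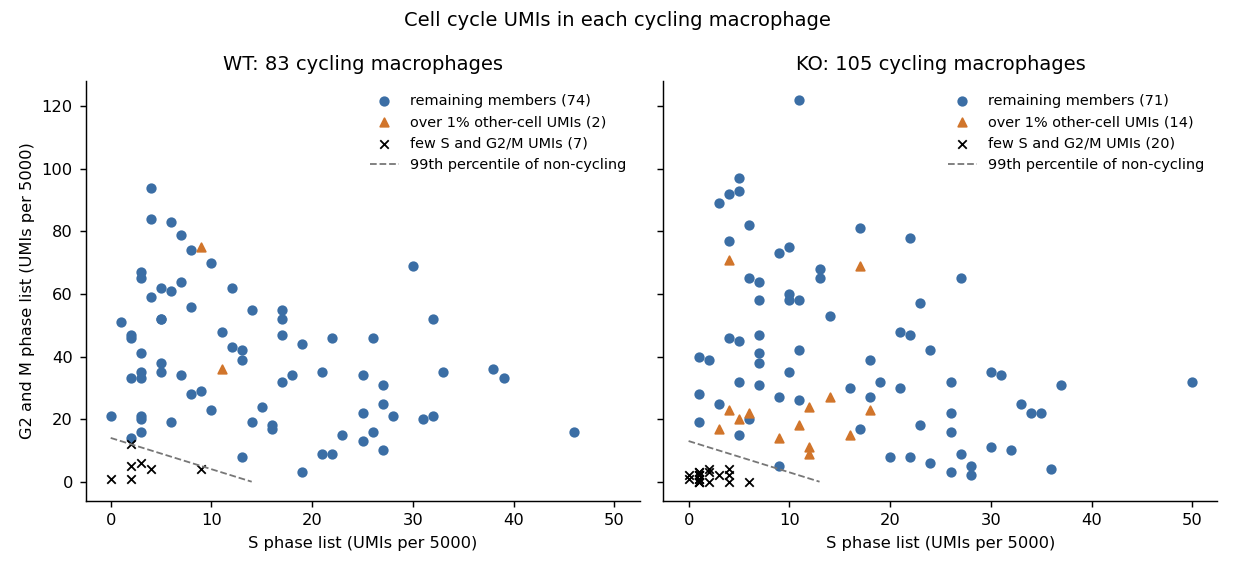
UMIs of the S phase list (x axis) and of the G2 and M phase list (y axis) in each cycling macrophage after thinning to 5000 UMIs, WT left and KO right. Circles are the 74 and 71 remaining cells, triangles cells with over 1% of UMIs from other cell types, crosses the 7 WT and 20 KO cells at or under the 99th percentile of non-cycling macrophages (dashed line).

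The 4 promoters below stand for the 2 programmes that the cycling cells carried, since Mcm5 and Pclaf belong to DNA replication and Plk1 and Hmmr to the spindle. Pclaf, named for its rank, is in none of the gene lists. They are RefSeq sequences of GRCm38.p6, from 250 bases before to 50 after the start of the gene. Capitals mark matches on either strand to E2F letters (TTTCCCGC, TTTCGCGC, TTTGCCGC or TTTGGCGC), to CHR letters (TTTGAA) and to CCAAT. Mcm5 is at chr8:75109259-75109558 on the plus strand, Pclaf at chr9:65890073-65890372 on the plus strand, Plk1 at chr7:122159185-122159484 on the plus strand and Hmmr at chr11:40733388-40733687 on the minus strand.
Mcm5: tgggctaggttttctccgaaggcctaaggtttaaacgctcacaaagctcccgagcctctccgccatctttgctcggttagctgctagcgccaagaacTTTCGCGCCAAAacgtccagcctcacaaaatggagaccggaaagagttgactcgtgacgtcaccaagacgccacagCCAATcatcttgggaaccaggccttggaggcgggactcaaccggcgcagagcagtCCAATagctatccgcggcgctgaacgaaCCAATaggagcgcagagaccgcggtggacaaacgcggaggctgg
Pclaf: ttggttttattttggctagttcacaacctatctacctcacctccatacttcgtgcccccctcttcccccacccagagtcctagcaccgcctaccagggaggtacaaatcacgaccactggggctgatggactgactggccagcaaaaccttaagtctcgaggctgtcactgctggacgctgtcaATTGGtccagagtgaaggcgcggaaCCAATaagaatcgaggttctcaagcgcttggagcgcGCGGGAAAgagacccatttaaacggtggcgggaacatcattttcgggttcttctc
Plk1: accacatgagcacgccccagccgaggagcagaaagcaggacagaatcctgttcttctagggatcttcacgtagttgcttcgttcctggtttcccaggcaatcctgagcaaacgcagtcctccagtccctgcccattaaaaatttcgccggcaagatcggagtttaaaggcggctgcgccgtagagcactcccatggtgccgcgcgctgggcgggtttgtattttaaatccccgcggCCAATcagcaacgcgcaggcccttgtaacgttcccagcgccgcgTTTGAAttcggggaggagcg
Hmmr: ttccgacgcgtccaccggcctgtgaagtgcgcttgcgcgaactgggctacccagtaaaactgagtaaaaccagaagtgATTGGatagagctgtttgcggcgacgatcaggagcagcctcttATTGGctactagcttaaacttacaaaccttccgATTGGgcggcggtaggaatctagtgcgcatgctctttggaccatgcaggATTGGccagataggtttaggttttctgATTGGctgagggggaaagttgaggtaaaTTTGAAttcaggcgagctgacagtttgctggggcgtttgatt
The first pair holds E2F letters and no TTTGAA, and the second pair TTTGAA and no E2F letters. In Mcm5 a pair of E2F matches overlaps.

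The 2 lists differed in these letters as a whole. RefSeq promoters were found for 36 of 46 genes of the S phase list (41 promoters) and 50 of 60 genes of the G2 and M phase list (55 promoters). E2F letters stood in 15 of 41 S phase promoters (36.6%), in 2 of 55 G2 and M phase promoters (3.64%) and in 2.26% of all 32851 promoters. TTTGAA stood in 12.2%, 67.3% and 17.9%, and CCAAT in 61.0%, 74.5% and 37.4%. Both TTTGAA and CCAAT were found in 54.5% of G2 and M phase promoters, against 9.76% of S phase promoters and 6.95% of all. A match describes letters in this window and no binding was measured.

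Genes of DNA replication, histones and mitosis stood far higher in cycling than in non-cycling macrophages, in both libraries, and macrophage genes stood lower. In WT, 740 of 11786 genes were higher past 2-fold in cycling than in non-cycling macrophages (6.28%) and 90 were lower (0.764%). In KO, 780 of 12033 were higher (6.48%) and 79 lower (0.657%). Of the 11611 genes measured in both, 539 were higher in both libraries, 74.7% of the WT and 72.1% of the KO list. The 28 that were lower in both made up 31.1% and 35.4%. The median over all genes was 0.08 in WT and 0.11 in KO (log2).

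Genes of DNA replication were higher by a median of 2.14 in WT and 2.09 in KO (log2), with 41 of 43 and 38 of 43 past 2-fold. Mcm5, a subunit of the replicative helicase, stood at 58.8 CPM in cycling against 3.30 CPM in non-cycling WT macrophages, and 58.0 against 4.05 CPM in KO. Rrm2, the subunit that limits the making of deoxynucleotides, had 154 against 1.52 CPM in WT and 75.8 against 1.85 CPM in KO. Pclaf binds the sliding clamp at the fork and is outside the list. It had 550.1 against 3.53 CPM in WT and 443 against 3.68 CPM in KO, ratios of 156 [129.9 to 188] and 120.3 [101 to 145]. Tk1, thymidine kinase, had 184 against 3.90 CPM in WT and 145 against 3.68 CPM in KO. All 4 were low but present in non-cycling macrophages.

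Histone genes that are expressed with DNA replication had medians of 3.48 and 3.05, and 20 of 23 were past 2-fold higher in each library. H1f5, a linker histone, had 806 against 3.87 CPM in WT and 593 against 5.28 CPM in KO, and H3c2, a histone H3 gene, 62.7 against 0.209 CPM in WT and 65.5 against 0.261 CPM in KO. Of the others, H4c9 and H1f2 were higher by less and H2bc4 was lower in cycling cells, with 95.4 against 189 CPM in WT and 109.9 against 151 CPM in KO. These genes are near-identical copies of each other and their transcripts mostly lack a poly(A) tail, which the chemistry needs, so their levels are uncertain.

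Genes of G2 and M phase were higher nearly throughout: 58 of 59 in WT and 59 of 59 in KO were higher past 2-fold. Their medians were 3.48 and 3.62, and 3.59 and 3.94 in the remaining cells, which this list helped to choose. The exception in WT was Gas2l3, a protein of the late spindle, with 47.1 against 30.1 CPM in WT and 97.8 against 42.5 CPM in KO. Nusap1, which bundles spindle microtubules, led the ranking of all genes, with 241 against 0.811 CPM in WT and 219 against 0.862 CPM in KO. Its ratios were 297 [206 to 443] and 255 [179 to 374], and 61 of 83 and 62 of 105 cells had a UMI. Birc5, a subunit of the chromosomal passenger complex, stood at 476 against 4.50 CPM in WT and 464 against 4.39 CPM in KO, Plk1, the polo kinase that drives mitotic entry, at 82.1 against 0.602 CPM in WT and 81.4 against 0.627 CPM in KO, and Hmmr, a spindle protein, at 179 against 1.26 CPM in WT and 167 against 0.914 CPM in KO. Ccna2, the cyclin of S and G2 phase, had 129.8 against 0.707 CPM in WT and 124 against 0.914 CPM in KO, and Cenpf, a kinetochore protein, 281 against 2.07 CPM in WT and 286 against 1.80 CPM in KO. Cdk1, the kinase that mitotic cyclins activate, had 189 against 3.90 CPM in WT and 196 against 4.65 CPM in KO, and Ube2c, which loads ubiquitin on those cyclins, 433 against 8.48 CPM in WT and 490.2 against 6.32 CPM in KO.

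**Figure D2:**
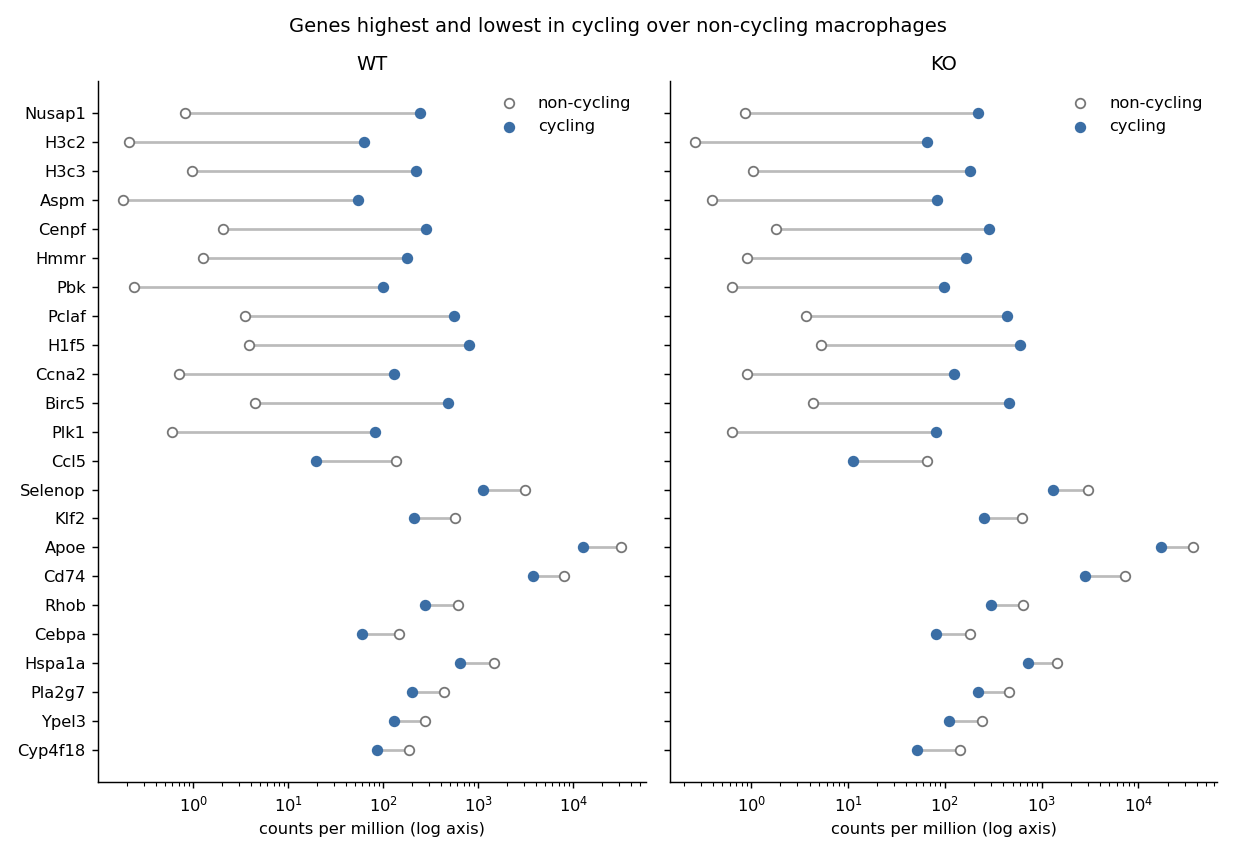
Level in CPM (x axis, log scale) of the 12 genes highest and 11 of the 12 lowest in cycling (filled) against non-cycling macrophages (open), WT left and KO right. Each of the top 12 is higher in both libraries, by distances that differ for some, such as H1f5, with ratios of 208 [176 to 248] in WT and 112 [96.8 to 131] in KO; Nusap1 goes from 0.811 to 241 CPM in WT and from 0.862 to 219 in KO.

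Nusap1 and Birc5 were also high in other cycling cells of the same muscle. Fibro-adipogenic barcodes with Pdgfra of at least 3 UMIs and the same Mki67 and Top2a sum (35 in WT, 69 in KO) had 209 and 144 CPM of Nusap1. Myogenic barcodes with Cdh15 of at least 3 UMIs (89 and 86) had 253 and 206 CPM. Birc5 stood at 440.2 and 357 CPM in the former and 470.1 and 419 in the latter, against 476 and 464 in cycling macrophages.

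Proteins that pack chromatin followed, with medians of 2.43 and 2.51 and 29 of 30 genes past 2-fold in each library. Stmn1, which takes microtubules apart, had 845 against 24.9 CPM in WT and 848 against 24.9 CPM in KO, and Hmgb2, a DNA-bending protein, 1239.9 against 129.8 CPM in WT and 1172 against 122 CPM in KO. Among repair genes of homologous recombination the medians were 1.53 and 1.38. Brca1, a scaffold of this repair, had 28.8 against 0.864 CPM in WT and 35.1 against 0.679 CPM in KO. The regulators above these programmes were lower in level and differed less, with medians of 0.59 and 0.80. Foxm1, the factor of late cell cycle genes, had 19.4 against 0.314 CPM in WT and 34.1 against 0.575 CPM in KO, while Rb1, which holds E2F back, had 34.9 against 30.9 CPM in WT and 44.4 against 39.7 CPM in KO.

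Genes of the G1 step had medians of 0.76 and 0.96 and were mixed. Ccne2, the cyclin of S phase entry, had 34.4 against 0.602 CPM in WT and 35.1 against 1.23 CPM in KO. Cdkn2c, the inhibitor p18 of CDK4 and CDK6, was higher too, with 84.8 against 10.3 CPM in WT and 81.4 against 7.76 CPM in KO. Ccnd1, the cyclin that growth factors induce, had 90.9 against 46.5 CPM in WT and 115 against 50.9 CPM in KO. The 1 member whose direction differed between the libraries among those named is Cdkn1a, the inhibitor p21 and a target of p53, with 228 against 360.3 CPM in WT and 544 against 450.4 CPM in KO. The KO level of Cdkn1a was 479 CPM in the remaining cells and 1189.5 CPM in the 20 KO cells with few cycle UMIs. The p53 target list had medians of -0.19 in WT and 0.13 in KO, the latter just under 0 with median-of-ratios scaling, and of -0.30 and -0.19 in the remaining cells.

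Growth metabolism was higher as well, by smaller steps. Genes that make nucleotides, serine and one-carbon units had medians of 0.82 and 0.92, and all that could be measured were higher, 23 of 23 in WT and 25 of 25 in KO. Mthfd2, the mitochondrial folate enzyme of growing cells, had 42.7 against 13.1 CPM in WT and 65.0 against 10.4 CPM in KO. Ribosome biogenesis genes were higher in 24 of 24 in each library, with medians of 0.56 and 0.59. Nop58, a core protein of snoRNA particles, had 75.4 against 22.6 CPM in WT and 97.8 against 24.3 CPM in KO. Respiratory chain genes were higher in 31 of 31 and 28 of 31, with medians of 0.48 and 0.38 and none past 2-fold. The glycolysis list had medians near that of all genes, at 0.16 and 0.19, with 11 of 17 genes higher in WT and 10 of 17 in KO. Its summed level was higher in cycling cells, with 3735 against 2582 CPM in WT and 3414 against 2712.5 CPM in KO. Myc, a driver of this growth programme in many cells, had 17.2 against 8.93 CPM in WT and 26.2 against 10.1 CPM in KO.

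Genes of H3K9 and DNA methylation had medians of 0.50 and 0.32. Past 2-fold higher in both libraries were Suv39h1, Cbx3, Dnmt1, Cbx5, Uhrf1 and Hells. Uhrf1, which brings Dnmt1 to copied DNA, had 38.8 against 0.916 CPM in WT and 52.4 against 1.46 CPM in KO, Dnmt1 itself 91.5 against 22.9 CPM in WT and 89.3 against 28.6 CPM in KO, and Cbx5, the heterochromatin protein HP1 alpha, 96.5 against 15.5 CPM in WT and 129 against 19.1 CPM in KO. Suv39h1, another H3K9 methyltransferase, had 29.9 against 4.84 CPM in WT and 24.3 against 4.73 CPM in KO. Setdb1 had 16.1 against 15.9 CPM in WT and 21.0 against 19.9 CPM in KO, and its partner Atf7ip 42.7 against 39.5 CPM in WT and 48.6 against 42.8 CPM in KO.

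Macrophage genes stood lower in cycling cells, which still had them at high levels. Of 20 pan-macrophage genes, 18 were lower in WT and 17 in KO, with medians of -0.43 and -0.54. Their summed level was 38810 against 55763 CPM in WT and 33721 against 55217 CPM in KO. These are shares of a cell's UMIs, and cycling cells held more UMIs each: the list gave a mean of 843 UMIs per cycling and 696 per non-cycling cell in WT, and 687 and 676 in KO. The list thus took a smaller share of the UMIs of cycling cells. The means per cell were not taken at equal depth. Cycling cells had medians of 18362 and 19120 UMIs, against 11271 and 11348.5 in non-cycling ones. Whether a cycling cell holds more or less RNA of the list was not tested. Apoe, the lipid carrier protein, was among the 12 lowest genes, with 12651 against 31786 CPM in WT and 17134 against 36212 CPM in KO, ratios of 0.398 [0.393 to 0.403] and 0.473 [0.468 to 0.478]. Selenop, the secreted selenium carrier, had 1113 against 3119 CPM in WT and 1297 against 3032 CPM in KO. Msr1, a scavenger receptor, went the other way in both libraries, with 131 against 90.6 CPM in WT and 135 against 105 CPM in KO.

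Transcription factors that hold macrophages in their mature state were lower in 18 of 23 genes in each library, with medians of -0.43 and -0.28. Klf2, a factor of quiescence, had 209.6 against 564 CPM in WT and 254 against 620.1 CPM in KO, ratios of 0.371 [0.335 to 0.411] and 0.410 [0.376 to 0.446], and Cebpa 59.9 against 147 CPM in WT and 80.5 against 180.5 CPM in KO. Maf, a factor of mature macrophages, had 273 against 438 CPM in WT and 397 against 561 CPM in KO, and Spi1, the factor PU.1, 435 against 483 CPM in WT and 387 against 466 CPM in KO.

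MHC class II genes, which present antigen to T cells, were lower in 10 of 11 genes in each library, with medians of -0.80 and -0.96. Cd74, the chain that guides MHC class II, had 3761 against 7999 CPM in WT and 2833 against 7177 CPM in KO, and H2-Aa 1973 against 3749.7 CPM in WT and 1398 against 3613 CPM in KO. Their summed level was 10279.6 against 19556 CPM in WT and 7489 against 18055 CPM in KO. After thinning to 5000 UMIs, H2-Aa had a UMI in 50.6% [39.4 to 61.8] of cycling and 78.8% of non-cycling WT macrophages, and in 62.9% [52.9 to 72.1] and 77.9% in KO. Endothelial barcodes, measured in the same way, had 24.9% and 24.3%. Whether that is background or RNA of their own was not tested. The median depths of endothelial barcodes were 9496 and 10351.5 UMIs. Without thinning, the shares in cycling cells were 77.1% and 81.0% and in non-cycling ones 88.0% and 87.2%.

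Receptors for colony-stimulating factors and cytokines were lower in 18 of 21 genes in each library, with medians of -0.43 and -0.46; Csf2rb, the shared chain of the receptors for GM-CSF and IL-3, had 55.5 against 95.1 CPM in WT and 73.0 against 109 CPM in KO. Phagocytosis and complement genes had medians of -0.38 and -0.51, with Axl, a receptor for dying cells, at 40.5 against 93.1 CPM in WT and 53.3 against 87.6 CPM in KO. Immediate early and heat shock genes, which respond to tissue dissociation, had medians of -0.64 and -0.37, with Hspa1a at 634 against 1466 CPM in WT and 716 against 1448 CPM in KO. Ccl5, a chemokine for T cells, stood first among the lowest genes, with 19.4 against 137 CPM in WT and 11.2 against 65.2 CPM in KO.

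**Figure D3:**
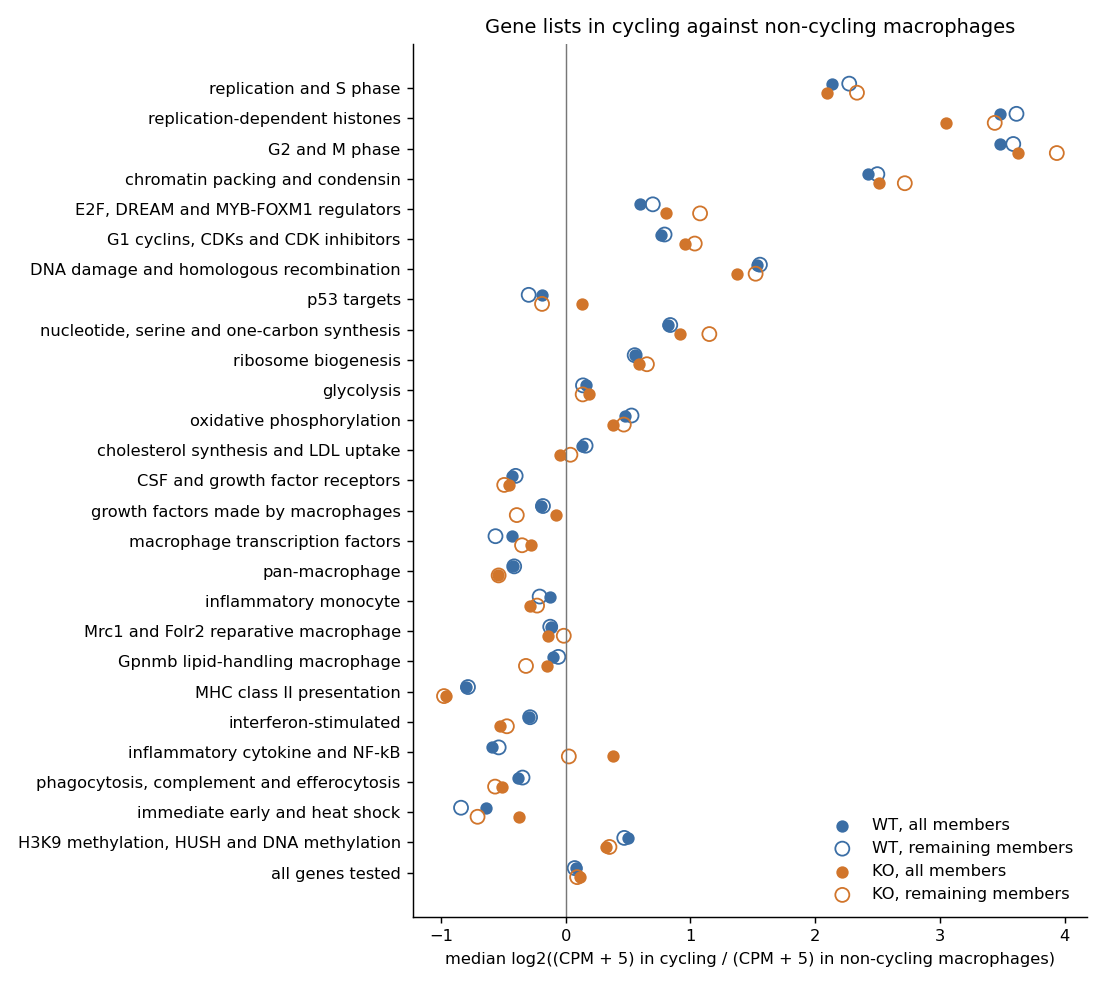
Median log2 ratio of CPM + 5 (x axis) in cycling against non-cycling macrophages for 26 gene lists and for all genes tested, with all cycling cells (filled) and the remaining cells (open), WT blue and KO orange. The S phase, histone, G2 and M phase and chromatin lists lie at 2 or above in both libraries, all genes at 0.08 and 0.11; the inflammatory list is at -0.59 in WT and 0.38 in KO.

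The share of cycling cells was set against the state of the macrophage. The macrophages of both libraries together were ranked by the UMIs of a state list per 5000 UMIs and cut into quartiles, so that a quartile has the same limits in both libraries and need not hold the same number of cells; the lists hold none of the genes that chose the cells. For the Gpnmb list of lipid-handling macrophages, 4.99% [3.69 to 6.59] of WT macrophages in the lowest quartile were cycling and 0.879% [0.354 to 1.80] in the highest, and in KO 6.20% [4.75 to 7.92] and 0.920% [0.442 to 1.69]. With only the remaining cells taken as cycling the shares were 4.49% and 0.881% in WT and 5.50% and 0.369% in KO. Macrophages rich in lipid-handling RNA thus held a smaller share of cycling cells in each library. MHC class II gave 5.28% [3.89 to 6.98] and 1.27% [0.660 to 2.21] in WT and 4.72% [3.56 to 6.13] and 0.741% [0.298 to 1.52] in KO, and phagocytosis genes 3.58% and 0.826%, and 4.99% and 0.779%.

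The other lists gave slopes that differed by list, by library and by how cycling cells were called. By the Mrc1 and Folr2 list of reparative macrophages, the lowest and highest quartile held 2.36% [1.56 to 3.41] and 2.19% [1.28 to 3.48] in WT. In KO the share fell over the 4 quartiles, from 3.48% [2.34 to 4.96] through 2.86% and 2.58% to 1.86% [1.14 to 2.86], and from 5.64% [4.17 to 7.42] to 2.80% [1.89 to 3.97] when cells with at least 2 UMIs of Mki67 and Top2a after thinning were taken as cycling. By the monocyte list the shares went from 1.15% [0.529 to 2.18] to 2.63% [1.78 to 3.74] in WT and from 1.87% [1.21 to 2.75] to 3.34% [2.15 to 4.93] in KO, with 3.30% and 3.55% in the third quartile. After thinning, the KO shares along the monocyte list were 2.77% [1.95 to 3.79] in the lowest, 4.88% in the third and 7.09% [5.33 to 9.22] in the highest quartile. With the remaining cells the shares of the lowest and highest quartile were 1.03% and 2.25% in WT and 1.05% and 2.65% in KO. The monocyte list is not particular to monocytes. Its medians per 5000 UMIs were 80 in WT and 70 in KO in cycling fibro-adipogenic barcodes. Cycling myogenic barcodes had 47 and 41.5, and cycling macrophages 31 and 23. By the inflammatory list the shares went from 2.73% [1.85 to 3.88] to 1.34% [0.646 to 2.46] in WT and from 2.54% [1.63 to 3.76] to 3.06% [2.11 to 4.27] in KO. With the remaining cells they went from 2.57% to 0.816% and from 2.36% to 1.24%. By the interferon-stimulated list they went from 1.91% [1.02 to 3.24] to 1.88% [1.21 to 2.79] in WT and from 2.76% [1.93 to 3.82] to 1.32% [0.572 to 2.58] in KO. With cycling cells called before thinning, the bracketed intervals of the lowest and highest quartile overlap in each library for every list of this paragraph. After thinning, those of the Mrc1 and Folr2 list and of the monocyte list lie apart in KO. Along the inflammatory list the thinned KO shares were 3.28% [2.24 to 4.62] and 5.75% [4.43 to 7.31], and the WT shares 3.28% and 2.15%. UMIs of a list per 5000 UMIs also depend on how many of a cell's UMIs are cell cycle RNA, and the part of this in the slopes was not tested.

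**Figure D4:**
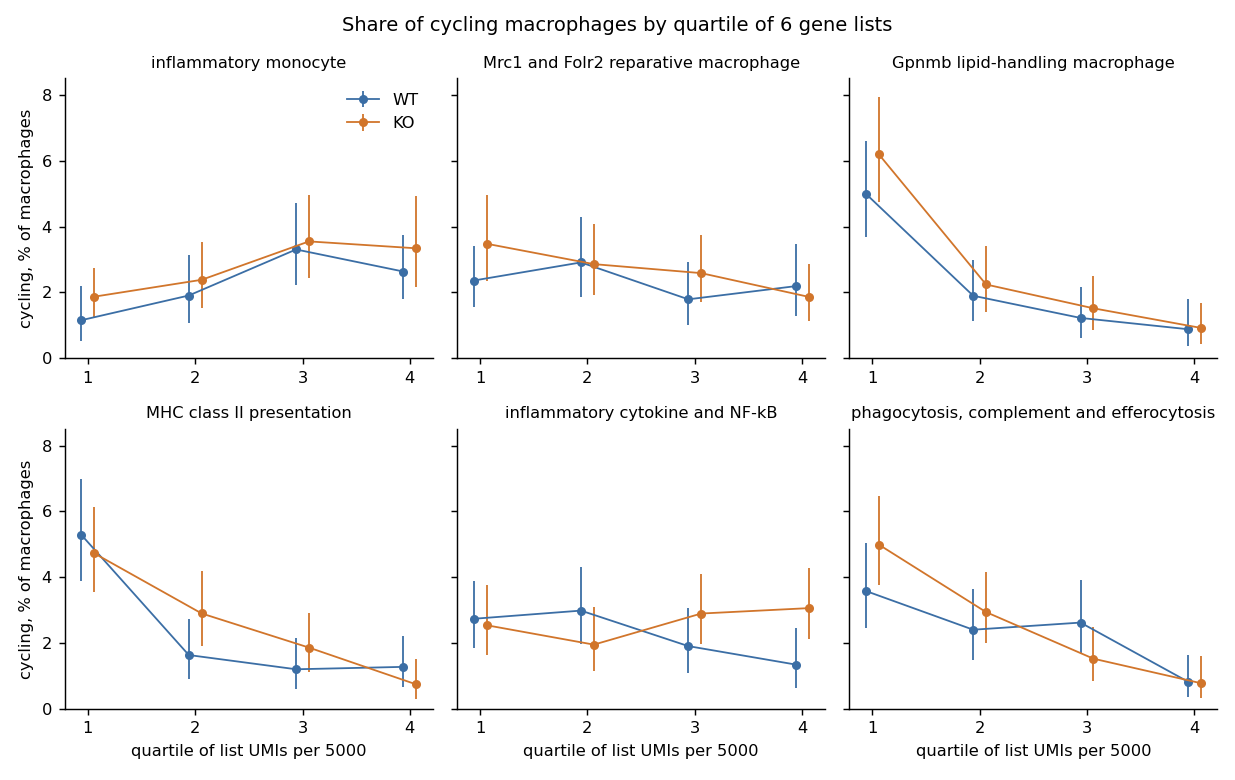
Share of cycling cells among macrophages (y axis, %) by quartile of the UMIs of 6 state lists per 5000 UMIs (x axis, 1 lowest), WT blue and KO orange; bars are exact 95% intervals for counting error. Cycling cells were called before thinning. The share drops from 4.99% to 0.879% in WT and from 6.20% to 0.920% in KO along the Gpnmb list.

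Single state genes were counted after thinning to 5000 UMIs, and 1 gene need not follow its list. By level in cycling against non-cycling cells, the Mrc1 and Folr2 list had medians of -0.12 in WT and -0.14 in KO (log2). Of its 22 genes 12 were lower in WT and 14 in KO. Folr2, the folate receptor of tissue-resident and reparative macrophages, had a UMI in 62.7% [51.3 to 73.0] of cycling and 47.0% of non-cycling WT macrophages, and in 59.0% [49.0 to 68.5] and 45.7% in KO, with 3.22% and 2.69% of endothelial barcodes (cycling cells without thinning 84.3% and 74.3%). Ly6c2, the marker of newly recruited monocytes, was found in 6.02% [1.98 to 13.5] of cycling and 23.2% of non-cycling cells in WT, but in 19.0% [12.0 to 27.9] and 16.2% in KO, with 3.22% and 1.49% of endothelial barcodes (cycling cells without thinning 20.5% and 26.7%). By level, Ly6c2 had 64.9 against 274 CPM in WT and 43.5 against 94.4 CPM in KO. It was thus scarcer in cycling cells of WT, while in KO share and level differ in direction and give no order. Ccr2, the receptor that brings monocytes into tissue, had shares whose intervals take in the non-cycling ones, with 41.0% [30.3 to 52.3] against 44.1% in WT and 42.9% [33.2 to 52.9] against 43.9% in KO (endothelial 1.54% and 2.54%; cycling cells without thinning 62.7% and 58.1%).

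By the balance of both lists, 40 of 83 WT cells leaned to S phase (48.2% [37.1 to 59.4]) and 58 of 105 KO cells (55.2% [45.2 to 65.0]), the others to G2 and M phase. Without thinning the shares were 44.6% and 58.1%, and in the remaining cells 43.2% [31.8 to 55.3] and 47.9% [35.9 to 60.1]. These intervals overlap. The call sets each cell against sums pooled over cycling cells of the same type in its own library. It counts the cells with few cycle UMIs too. Cells of each set must therefore fall on both sides. For that reason these shares cannot show whether the libraries or the cell types differ in phase. Histone UMIs, in neither list, had medians of 47.5 per 5000 UMIs in the S-leaning WT cells and 10.5 in the KO cells, and of 50.5 and 24 in the remaining ones. Cycling fibro-adipogenic barcodes leaned to S phase in 45.7% and 53.6%, and cycling myogenic ones in 47.2% and 43.0%.

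In the WT library 2.31% of macrophages were cycling (83 of 3586 [1.85 to 2.86]) and in the KO library 2.65% (105 of 3967 [2.17 to 3.20]), a ratio of 1.14 [0.849 to 1.54]. Without the cells of few cycle UMIs and those with other-cell UMIs the shares were 2.08% and 1.86%. The ratio was then 0.894 [0.637 to 1.26], so the direction turned, under an alternative chosen after seeing the data. At 3 or more UMIs of Mki67 and Top2a the ratio was 1.50 [1.19 to 1.90], and at 1 or more after thinning 1.46 [1.27 to 1.70], intervals that do not hold 1. Under all other alternatives the ratio lay between 1.01 and 1.50. The share of dividing macrophages therefore has no order between the libraries that holds under every alternative.

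Between the libraries, the S phase, histone and G2 and M phase lists of cycling macrophages had medians between -0.22 and 0.03 (log2). Interferon-stimulated genes were lower in KO and inflammatory genes higher. In all, 175 of 7070 genes were higher past 2-fold in KO (2.48%) and 62 lower (0.877%), with a median of 0.08. In the remaining cells 97 of 6145 were higher (1.58%) and 51 lower (0.83%). In non-cycling macrophages, whose sums are far deeper, 10 of 13234 were higher (0.0756%) and 20 lower (0.151%). The S phase list had a median of -0.07, histones -0.22 and the G2 and M phase list 0.03. In these lists 0 of 40, 0 of 22 and 0 of 60 genes were past 2-fold. The signs of the S phase and the G2 and M phase medians changed with the scaling. In the remaining cells the medians were 0.13, 0.0067 and 0.21, so the S phase and histone signs turned. There 48 of 59 G2 and M phase genes were higher in KO, against 35 of 60 over all cycling cells. Among all genes, 3705 of 6145 were higher in KO in the remaining cells and 4203 of 7070 over all cycling cells. Low sums of the S and G2/M lists left out 20 KO and 7 WT cells, so a rise of these lists is partly built in. The list of E2F, DREAM and MYB-FOXM1 regulators was at 0.26, with 12 of 16 genes higher in KO. In the remaining cells it was at 0.36, with 9 of 12 higher.

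Interferon-stimulated genes, the antiviral programme that type I interferon turns on, were lower in KO in 46 of 48 genes, with 20 past 2-fold and a median of -0.87. Their summed level was 11015 CPM in WT and 6736 CPM in KO. Per cell, 5000 UMIs held a median of 48 in WT (7 to 206) and 33 in KO (5 to 141), so the cells of the libraries overlap. Non-cycling macrophages showed the same direction, with all 48 genes lower and a median of -0.61; the difference between both medians was not tested. Isg15, a ubiquitin-like protein, stood at 857 CPM in WT and 269 CPM in KO, a ratio of 0.314 [0.285 to 0.346], with a UMI in 75 of 83 and 69 of 105 cells. In non-cycling macrophages it had 852 and 388 CPM. AW112010, an RNA induced by interferon and bacterial products, stood at 314 CPM in WT and 59.4 CPM in KO, a ratio of 0.189 [0.155 to 0.229].

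A single WT cell of 50966 UMIs weighed on this list. It held 2223 of the 19864 list UMIs of WT cycling macrophages (11.2%), among them 635 of 843 UMIs of Rsad2, the antiviral enzyme viperin, and 143 of 190 of Cmpk2, its neighbour. Without it the median was -0.70, with 44 of 47 genes lower and 14 past 2-fold, and the summed level in WT was 10067 CPM. Rsad2 went from 467 to 118.7 CPM in WT without that cell, against 78.1 in KO, which is within 2-fold. Isg15 without it was 702 against 269 CPM, and Ifit3, which binds foreign RNA, 118 against 28.1 CPM.

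Inflammatory cytokine and NF-kB genes were higher in KO in 24 of 25 genes, with 14 past 2-fold and a median of 1.20. Their summed level was 3408 CPM in WT and 8556 CPM in KO. In non-cycling macrophages the median was 0.35. The 20 KO cells with few cycle UMIs carried the list at 24053 CPM, against 6775 in non-cycling KO macrophages and 7982 in the 7 WT cells of that kind. In the remaining cells the list stood at 2846 CPM in WT and 6239 CPM in KO, with 21 of 24 genes higher and a median of 1.06. Per cell the difference was smaller: 5000 UMIs held a median of 12 list UMIs in WT (1 to 212) and 21 in KO (0 to 448), and 12 and 16 in the remaining cells.

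Cxcl2, the chemokine that draws neutrophils, stood at 327 CPM in WT and 2943 CPM in KO, a ratio of 9.01 [8.28 to 9.82], with a UMI in 40 of 83 and 77 of 105 cells. The remaining cells had 241 and 1918 CPM, and the 20 KO cells of few cycle UMIs 9996 CPM. Non-cycling macrophages had 1179 and 2258 CPM, so WT cycling cells lay below them and KO cycling cells above, but the remaining KO cells below. Il10, the cytokine that restrains macrophages, stood at 10.5 CPM in WT and 181 CPM in KO (9.52 and 68.3 in the remaining cells), a ratio of 17.2 [10.9 to 28.9]. Cxcl3, a relative of Cxcl2, had 3.88 CPM in WT and 129 CPM in KO (2.54 and 67.0 in the remaining cells). Nlrp3, the inflammasome sensor, had 13.9 CPM in WT and 124 CPM in KO (12.1 and 84.7), and Il1rn, the antagonist of IL-1, 34.4 CPM in WT and 183 CPM in KO (29.8 and 127). These 5 kept their direction in the remaining cells, at lower KO levels.

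**Figure D5:**
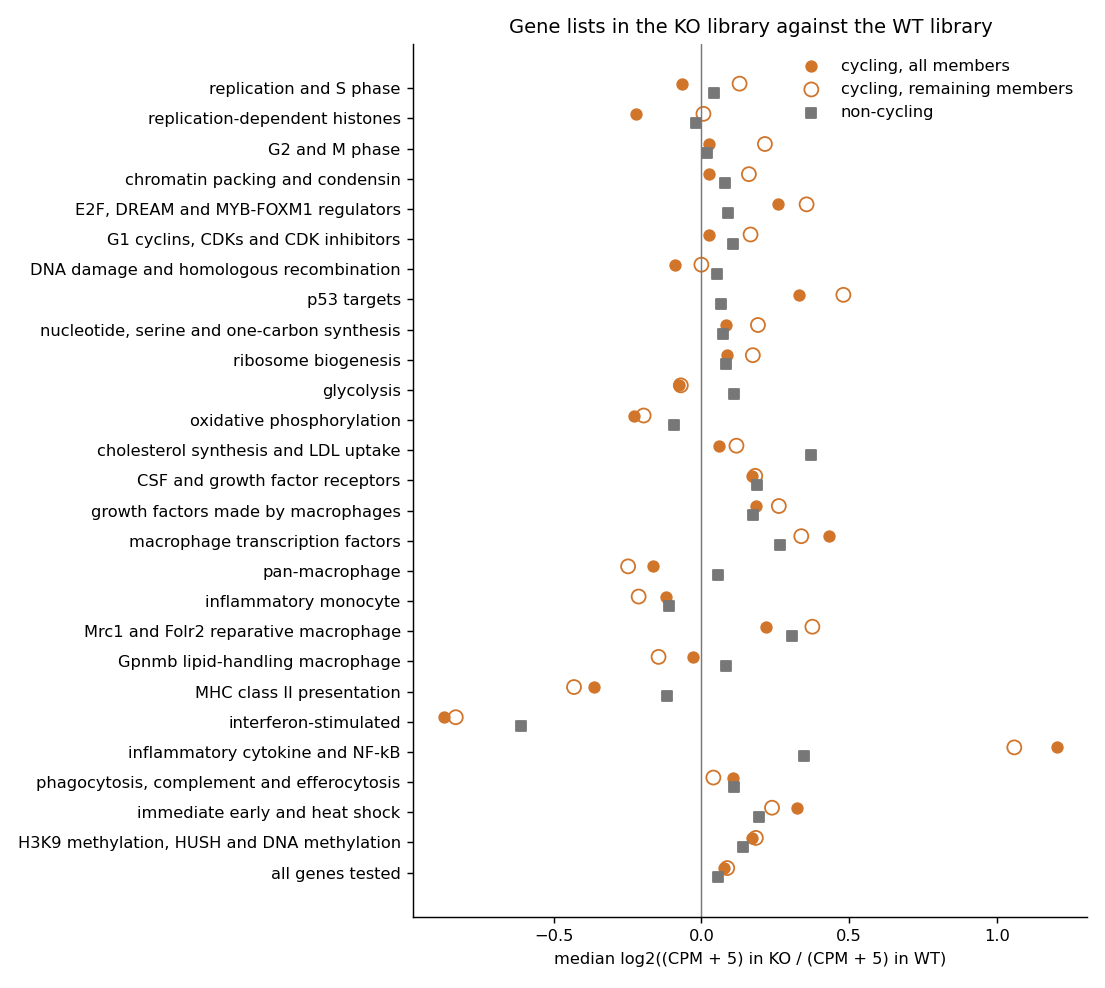
Median log2 ratio of CPM + 5 in KO against WT (x axis) for 26 gene lists and all genes tested, in all cycling macrophages (filled circles), the remaining cycling cells (open circles) and non-cycling macrophages (squares). Interferon-stimulated genes lie lowest in cycling cells, at -0.87, and inflammatory genes highest, at 1.20; the S phase, histone and G2 and M phase lists lie between -0.22 and 0.03 in all cycling cells and between 0.0067 and 0.21 in the remaining ones.

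In the 20 KO cells of few cycle UMIs the S phase list stood at 333 CPM and the G2 and M phase list at 336 CPM, against 418 and 273 in non-cycling KO macrophages; low values of these 2 lists chose the cells. Apoe had 37135 CPM, near the 36212 of non-cycling cells, and the pan-macrophage list 49532 CPM. Beside the inflammatory list they had Il10 at 804, Nlrp3 at 409.8 and Il1b at 1039.7 CPM. Mki67, the gene that chose them, stood at 416 CPM.

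Genes typical of fibroblasts were also higher in KO. Tnc, a matrix protein of injured tissue, had 9.98 CPM in WT and 137 CPM in KO, but 3.17 and 4.60 CPM in the remaining cells. Cthrc1, a protein of activated fibroblasts, had 28.8 CPM in WT and 176 CPM in KO (3.81 and 8.53 in the remaining cells), and Col1a1, the collagen I chain, 311 CPM in WT and 1263 CPM in KO (32.4 and 89.9). The summed fibro-adipogenic marker list stood at 1100 CPM in WT and 3434 CPM in KO cycling macrophages, at 433 and 691 in non-cycling ones and at 5132 and 8643 in free RNA, and at least 3 UMIs of it were found in 30 of 83 and 81 of 105 cells. In the remaining cells the list was at 168 and 311 CPM. Some genes of the ranking came from 1 cell: all 249 UMIs of Ccl17 from a KO cell, 85.7% of the KO UMIs of Prg4 and 61.0% of those of Areg, a growth factor of the EGF family, and 113 of 115 WT UMIs of Gzma, a granzyme of killer lymphocytes, from a WT cell.

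The lowest gene in KO was AC160336.1, a long noncoding RNA at chr14:44544055-44637201 on the minus strand (GENCODE M21, GRCm38). It stood at 788 CPM in WT and 1.40 CPM in KO, with a UMI in 78 of 83 and 3 of 105 cells. In non-cycling macrophages it had 373 and 3.92 CPM, and in WT its level was higher in cycling than in non-cycling ones. The KO library was lower too in cycling fibro-adipogenic barcodes, with 537 and 4.10 CPM, in cycling myogenic ones, with 630.2 and 7.41, and in free RNA, with 401 and 4.72. Plac8, a gene of recruited monocytes, had 372 CPM in WT and 78.1 CPM in KO, a ratio of 0.210 [0.176 to 0.249] (358 and 104 in the remaining cells), and 457 and 121 in non-cycling macrophages.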

How the data were processed

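Single-cell RNA was measured in 1 WT and 1 KO library. The deposited matrices hold counts (UMIs per gene and barcode), not normalized and not filtered for cells, per the values in them. The submitters' processing notes list Seurat 4.0.1, STAR 2.7.8a and STARsolo 2.7.9a, with GRCm38 as the build. For the counting settings and annotation release: not given in the sources used here. Groups came from the sample titles. UMIs were summed per set of cells, scaled to CPM, and compared by a 2-fold rule on log2(CPM + 5) among genes with at least 50 UMIs over both sums, because 1 library per group allows no test. Intervals at 95% are exact Poisson for levels, Clopper-Pearson for shares and conditional binomial for ratios. Shares, phases and quartiles used cells thinned at random to 5000 UMIs. The interval and fold code was tested on simulated counts. Free RNA was taken from barcodes of 20 to 100 UMIs.

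Genes were named by a rule: those of at least 50 CPM in 1 sum, ranked by whichever limit of the ratio's interval was closer to 1 (the weaker library deciding for cycling against non-cycling), the 12 highest and 12 lowest, without the 8 genes of the selection, mitochondrial, ribosomal protein, haemoglobin, immunoglobulin, sex-linked and unnamed models. Members of 39 gene lists could also be named. A few genes are not reported here. The cells, lists and rules were chosen with earlier results of these data known. Doublets were kept: Scrublet in scanpy 1.11.5 marked 0 barcodes by its own threshold, so leaving out the highest scores (0.8% per 1000 barcodes) is an alternative. It took out 9 of 83 WT and 8 of 105 KO cycling macrophages (10.8% and 7.62%), against 2.35% and 3.74% of non-cycling ones. Python 3.11.15, numpy 2.4.6, scipy 1.17.1, pandas 2.3.3 and matplotlib 3.10.9 were used.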

Additional observations from a re-analysis of the deposited data

Results flagged for a closer look

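Of 36 gene lists, 5 had medians in cycling against non-cycling macrophages of opposite sign in the libraries, and in 2 of them both medians were at least 0.3 from 0 on the log2 scale; the difference was not tested. The inflammatory cytokine and NF-kB list was at -0.59 in WT (23 of 29 genes lower) and 0.38 in KO (23 of 29 higher), and at -0.54 and 0.02 in the remaining cells. The tenocyte marker list was at -0.97 in WT and 0.42 in KO, with summed levels in cycling against non-cycling macrophages of 22.2 against 65.5 CPM and 126 against 40.2 CPM. In the remaining cells it was at -0.09 and 0.03, over 2 and 4 of its 5 genes, with 8.25 against 8.31 and 13.1 against 12.5 CPM, so little of the difference was left there. In KO, 43.7% of the tenocyte UMIs of cycling macrophages came from 1 cell. The other 3 lists were p53 targets, cholesterol synthesis (0.13 in WT and -0.04 in KO) and Schwann cell markers (-0.42 and 0.04, 1 gene).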

How the results depend on the processing

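No paired analysis was possible because each group has 1 library. The share of cycling macrophages in WT and KO was 3.37% and 5.07% at 3 or more UMIs of Mki67 and Top2a, 1.48% and 1.54% at 10 or more, 3.26% and 3.54% with at least 10000 UMIs per barcode, and 8.37% and 12.3% at 1 or more after thinning. In KO it was 2.14% without cells of few cycle UMIs and 1.86% without those and the cells of other-cell UMIs, alternatives chosen after seeing the data. The 830 WT genes past 2-fold became 1670 and 376 with a pseudocount of 1 and 20 CPM, and the 859 KO genes 1644 and 401. Between libraries in cycling cells, 237 genes became 100 at a pseudocount of 20, 101 at 200 UMIs and 148 without both kinds of cells. In non-cycling cells, 30 became 113 and 11 by pseudocount and 50 with the mean over cells. Median-of-ratios scaling moved the share of higher calls there from 33.3% to 15.8%. The inflammatory list's median in cycling against non-cycling cells turned from -0.59 to 0.084 in WT with 81 non-cycling cells matched on UMIs, and from 0.38 to -0.067 in KO without cells of few cycle UMIs; the cause was not tested. Of 1011 list medians under alternatives, 30 changed sign, 28 of them from values under 0.3 in size (log2) and the 2 of the inflammatory list from larger ones; apart from these 2, 89 moved by 0.2 or more and 920 by less; for named genes 216 moved, 0 reversed and 720 did not. Genes under 50 UMIs over both sums were left out by choice; with a limit of 20 UMIs, 9500 genes were tested between libraries in cycling cells and 321 were past 2-fold, against 237 of 7070.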

Other observations

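Of 15 growth factor genes measured, 11 were lower in cycling than in non-cycling macrophages in WT, 3 of them past 2-fold (all genes 0.764%), and 10 in KO, 0 past 2-fold (all genes 0.657%). The medians were -0.20 in WT and -0.08 in KO, and -0.18 and -0.39 in the remaining cells. Csf1, the growth factor that sustains macrophages, was higher in cycling cells of both libraries, with 19.4 against 7.62 CPM in WT and 18.2 against 7.52 CPM in KO, and Pdgfa, a mitogen for fibroblasts, had 76.0 against 39.0 CPM in WT and 67.8 against 44.6 CPM in KO. Igf1, a growth factor for muscle, had 161 against 257 CPM in WT and 201 against 266 CPM in KO, and Gdf15, a stress-induced member of the TGF-beta family, 249.5 against 509 CPM in WT and 791 against 675 CPM in KO.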
